A study of Homo sapiens with 8 samples.

Results

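The HOX gene clusters are described here in cultured human glioblastoma cells, the line LN229-TAZ(4SA), whose name refers to TAZ, a co-activator of the Hippo pathway. The set was taken by name, as every listed gene whose symbol starts with HOXA, HOXB, HOXC or HOXD, together with HOTAIR, HOTAIRM1 and HOTTIP. This gave 36 of the 13036 listed genes, with 8 in the HOXA cluster on chromosome 7, 8 in HOXB on chromosome 17, 12 in HOXC on chromosome 12 and 8 in HOXD on chromosome 2. Of these, 29 encode proteins and 7 are antisense or long non-coding RNA genes. HOTTIP and the other HOX genes outside the list were not analysed here. The rule uses names alone, but the family was picked from earlier results of these data, above all the changes of HOXB9 and HOXB-AS3 at 7 h. These 2 genes are therefore given as levels and fold changes without a call or p-value, and counts of genes that passed the test cover the other 34.

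Cells were held with AF at 1 µM in medium without glucose for 1 h or 7 h, called treated below, or kept in regular culture without AF for the same times. Each of the 4 groups has 2 RNA-seq libraries, and all 4 carry the TAZ(4SA) background, so parental LN229 cells are not part of the design. No group had AF alone or glucose loss alone, so the effects of these 2 changes cannot be told apart. Markers of the line were the intermediate filament gene VIM, at 2731 to 3732 CPM (reads scaled to library size) over the 8 libraries, and NES, at 888 to 1440 CPM. Of the astroglial genes checked, S100B stood at 93.6 to 275.6 CPM and the filament gene GFAP at 0.438 to 1.34 CPM.

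HOX genes encode homeodomain transcription factors that give cells their position along the body axis. In each cluster the genes are read from the same DNA strand, and their order on the chromosome follows the order in which they are used along the axis, with low-numbered genes in the hindbrain and neck and high-numbered genes towards the tail. Antisense and intergenic RNAs lie between them, and Polycomb and Trithorax proteins hold the clusters silent or active. In the adult forebrain most HOX genes are silent, and glioblastomas often express them.

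The table held 27731776 to 45811965 reads per library in listed genes, of which 3422 to 16364 fell in the 36 HOX genes. A single read was worth 0.0209 to 0.0430 CPM, and a HOX gene had between 1 and 2494 reads in a library. Levels are CPM on the deposited scale, n is 2 libraries per group, and a fold change is the log2 of treated over regular culture from limma with its standard error (SE). A gene was called at a Benjamini-Hochberg adjusted p under 0.05 over all 13028 tested genes. The 2 libraries of each group differed by more than counting error (chi-square per degree of freedom 2.79 to 3.62), and the labels do not state whether they are separate cultures, so p-values measure the spread between libraries, which may be technical. All 36 genes passed the filter of 1 CPM in at least 2 libraries, 28 of them with at least 1 CPM in all 8 libraries. The labels' library kits do not mark strand, so where a gene overlaps its antisense partner the reads could come from either.

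The RefSeq table of promoter windows (GRCh38.p14, from 250 bases before to 50 bases after a gene's start) held 22 windows for 15 of the 36 genes. The windows below are shown because they belong to a strongly lower gene of HOXA, to a gene of HOXD that fell and one that did not pass the test, and to a start shared by genes of HOXC. The HOXD3 window lies at an inner start of that gene. The windows are written 5′ to 3′ on the gene's strand, with every CG dinucleotide in capitals. HOXA6 lies on the minus strand, at chr7:27147725-27148024, and the others lie on the plus strand, HOXD11 at chr2:176107030-176107329, HOXD3 at chr2:176157057-176157356, and HOXC4 and HOXC5 at the identical window chr12:54016638-54016937.
HOXA6: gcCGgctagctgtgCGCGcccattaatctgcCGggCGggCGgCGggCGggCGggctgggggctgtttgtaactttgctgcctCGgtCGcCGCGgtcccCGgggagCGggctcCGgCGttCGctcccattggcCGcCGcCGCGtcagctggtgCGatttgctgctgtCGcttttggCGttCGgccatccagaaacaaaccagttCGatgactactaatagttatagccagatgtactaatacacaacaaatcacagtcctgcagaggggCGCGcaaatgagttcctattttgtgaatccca
HOXD11: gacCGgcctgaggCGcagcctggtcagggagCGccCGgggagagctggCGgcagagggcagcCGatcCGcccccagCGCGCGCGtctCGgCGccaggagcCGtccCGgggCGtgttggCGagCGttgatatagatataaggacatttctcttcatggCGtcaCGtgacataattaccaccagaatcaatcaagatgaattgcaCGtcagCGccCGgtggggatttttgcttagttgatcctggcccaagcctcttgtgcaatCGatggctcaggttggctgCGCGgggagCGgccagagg
HOXD3: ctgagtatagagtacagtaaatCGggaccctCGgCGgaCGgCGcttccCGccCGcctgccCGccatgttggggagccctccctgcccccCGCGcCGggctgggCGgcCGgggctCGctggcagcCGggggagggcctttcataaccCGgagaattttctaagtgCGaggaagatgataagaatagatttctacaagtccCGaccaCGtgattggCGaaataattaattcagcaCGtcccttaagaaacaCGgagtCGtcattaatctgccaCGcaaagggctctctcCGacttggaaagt
HOXC4 and HOXC5: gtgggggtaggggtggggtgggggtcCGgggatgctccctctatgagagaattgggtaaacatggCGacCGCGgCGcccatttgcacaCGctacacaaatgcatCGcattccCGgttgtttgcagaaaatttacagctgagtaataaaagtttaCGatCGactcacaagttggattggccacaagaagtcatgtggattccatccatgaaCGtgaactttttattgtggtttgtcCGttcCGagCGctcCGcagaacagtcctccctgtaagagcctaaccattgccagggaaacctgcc
These windows held 29, 27, 25 and 15 CG dinucleotides in the order shown. The median was 14 over all 35116 windows of the table and 18 over the 22 HOX windows. HOXA6 and HOXD11, which fell at 7 h, and HOXD3, which did not pass the test, were similar in CG content. The windows of HOXD4 and HOXB-AS3 (log2 fold change -2.08 and -3.09 at 7 h) held only 4 and 6. By GENCODE, the 250 bases before the HOXD4 start are themselves HOXD4 exon. The HOXB-AS3 window lies at an inner start and overlaps exons of HOXB6. Neither can therefore be read as the promoter at the gene's first start. The window of HOXD-AS2, which did not pass, held 10. A link between CG content and the change was not tested. The motif TGACNNNGC of the antioxidant response element, searched on both strands, was present in the windows of HOXA6, HOXD11, HOXD4 and HOXB-AS3, that is 4 of 22, against 13.3% of all windows. Of the half-site pairs bound by heat shock factor, TTCNNGAA was in none of the 22 windows (7.74% of all) and GAANNTTC in 1, that of HOXD3 (6.77% of all). TATAAA was in 4 windows, of HOXA3, HOXA10 and HOXD13 (11.5% of all).

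At 7 h most HOX genes were lower in treated cells. Apart from HOXB9 and HOXB-AS3, 27 of 34 genes fell, 1 rose and 6 did not pass the test, whereas 41.1% of all 13028 tested genes fell, 40.5% rose and 81.6% passed in either direction. Of those that fell, 20 were at least 2-fold lower, a change shown by 11.5% of all tested genes. None of the 34 was at least 2-fold higher (10.6%), a count that leaves out HOXB9 (log2 fold change 2.23). The median log2 fold change was -1.17, against -0.01 over all tested genes. Summed over the 36 genes, the level was 147.2 and 147.2 CPM in treated cells and 342 and 349 CPM in regular culture. In bulk RNA, fewer expressing cells and less RNA per cell cannot be told apart. The gene that rose was HOTAIRM1. The library size implied by the deposited scale, divided by the reads in listed genes, was 0.838 and 0.846 in treated cells at 7 h and 1.04 to 1.05 in the regular libraries. Its part in the result was not tested beyond total-count scaling, to the sum over the listed genes, under which 28 of the 34 genes fell and 1 rose, beside 7581 and 3144 of all tested genes.

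**Figure D1:**
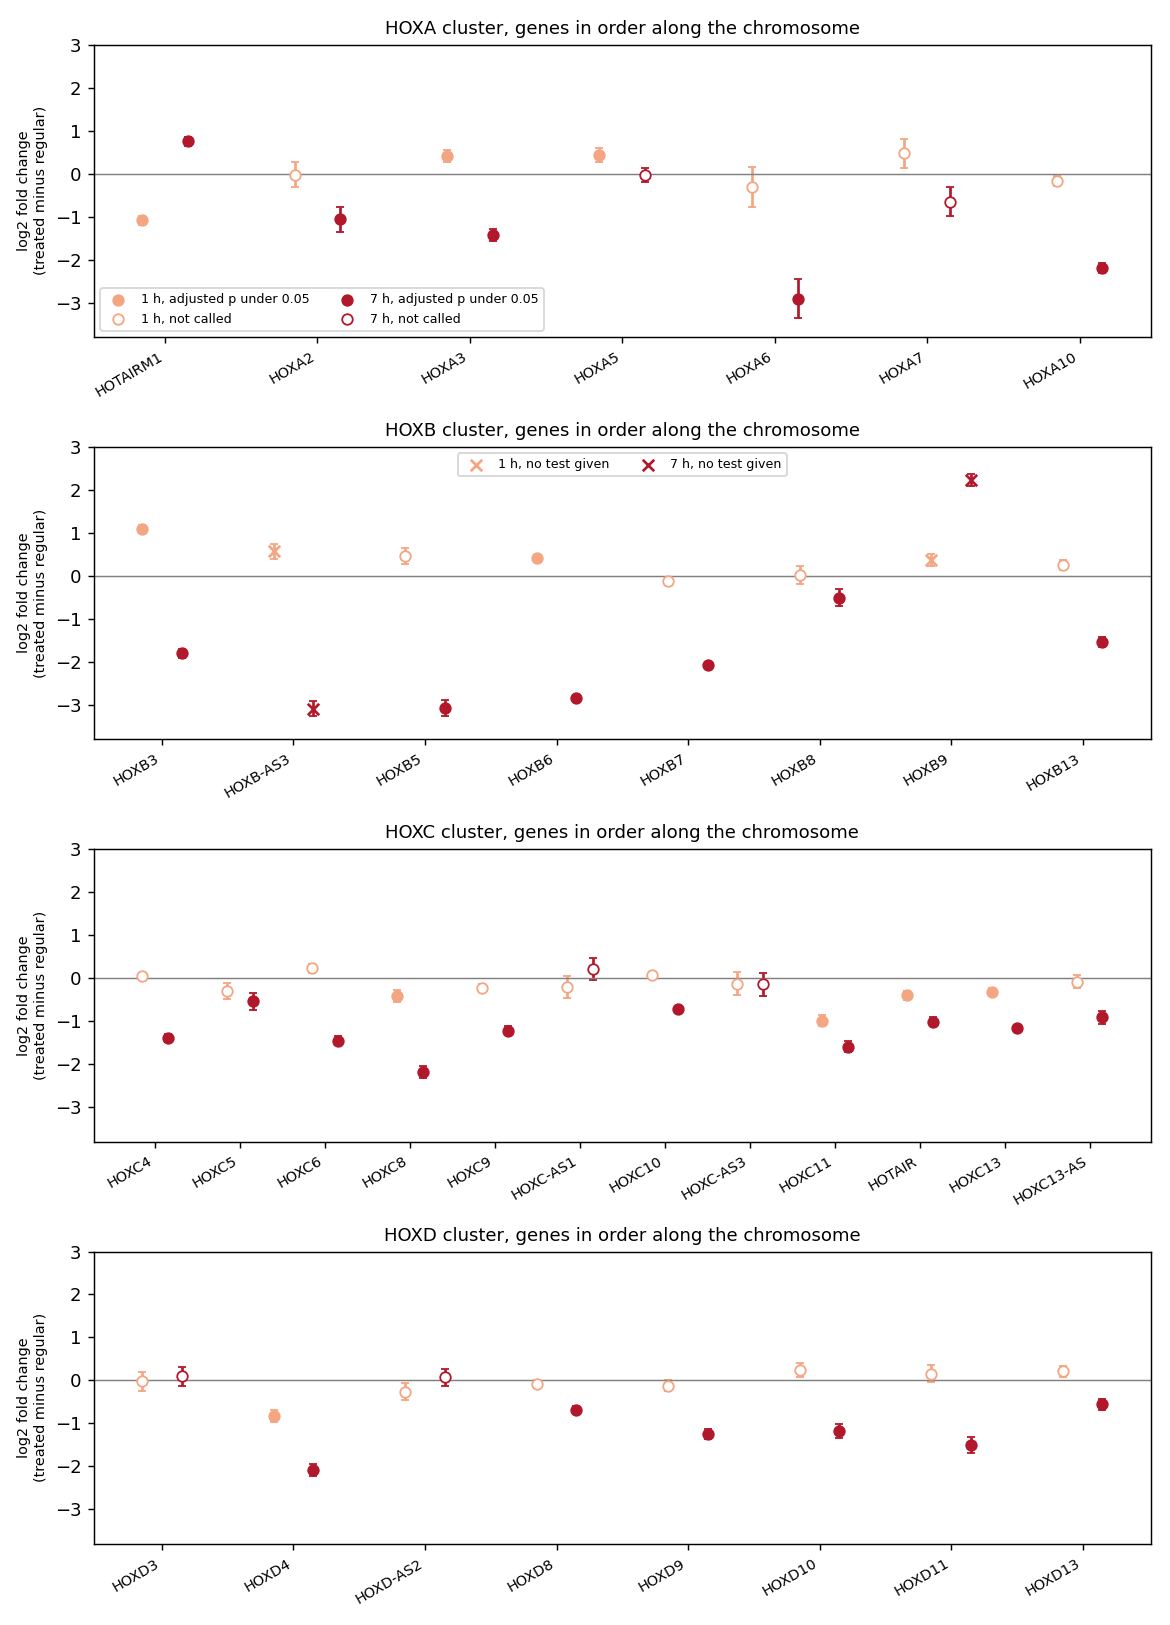
Log2 fold change of treated over regular culture (y axis) for the HOX genes reported by name, in their order along the chromosome (x axis), at 1 h in light orange and at 7 h in red, with bars for the SE; filled points have a limma adjusted p under 0.05, open points do not, and crosses mark HOXB9 and HOXB-AS3, given without a test. At 7 h nearly all red points lie below 0, HOTAIRM1 (0.75) is the filled one above it, and the crosses lie at 2.23 for HOXB9 and -3.09 for HOXB-AS3.

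In the HOXB cluster, HOXB9 (higher, 2.23) and HOXB-AS3 (lower, -3.09) apart, all 6 other genes fell at 7 h, where 41.1% of all tested genes did. From its low-numbered end, HOXB3, a hindbrain patterning gene, had 5.25 and 5.23 CPM in treated cells and 18.4 and 18.4 CPM in regular culture at 7 h (log2 fold change -1.80 with SE 0.10, limma adjusted p = 1.91e-12). HOXB5, which acts in the gut's nerve supply and in blood vessels, had 0.861 and 1.5 CPM in treated cells and 9.77 and 10.2 CPM in regular culture (log2 fold change -3.07 with SE 0.18, limma adjusted p = 4.28e-12). HOXB6 had 4.78 and 4.5 CPM in treated cells and 33.3 and 33.8 CPM in regular culture (log2 fold change -2.84 with SE 0.08, limma adjusted p = 2.59e-17). In all 3 genes both treated libraries lay far below both regular ones. HOXB-AS3, a non-coding RNA gene that crosses HOXB5 and HOXB6 on the opposite strand, had 0.732 and 0.925 CPM in treated cells and 7.03 and 7.81 CPM in regular culture (log2 fold change -3.09 with SE 0.17), the lowest fold change of the family. By the GENCODE annotation, 425 exonic bases of HOXB-AS3, 22.2% of its exon sequence, also lie in exons of HOXB6, 73 in HOXB5 and 77 in HOXB3, so part of these reads could belong to either strand. HOXB3 and HOXB6 in turn share 433 exonic bases on the same strand.

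Further along, HOXB7, which is overexpressed in several carcinomas, had 12.4 and 12.2 CPM in treated cells and 52.1 and 51.3 CPM in regular culture at 7 h (log2 fold change -2.07 with SE 0.05, limma adjusted p = 5.73e-18). HOXB8, a gene of myeloid progenitors, had 1.21 and 1.404 CPM in treated cells and 1.65 and 2.12 CPM in regular culture (log2 fold change -0.51 with SE 0.20, limma adjusted p = 0.0249). HOXB13, which marks prostate and lies apart from the rest of the cluster, had 2.67 and 2.202 CPM in treated cells and 7.45 and 6.84 CPM in regular culture (log2 fold change -1.54 with SE 0.12, limma adjusted p = 6.77e-10). The groups did not overlap in any of the 3, but HOXB8 lost its call without treated library A (-0.40) or regular library B (-0.33), and with limma-voom (-0.49). Between HOXB8 and HOXB13 stands HOXB9, a thoracic patterning gene, with 10.5 and 13.2 CPM in treated cells and 2.36 and 2.58 CPM in regular culture (log2 fold change 2.23 with SE 0.14), or 244 and 415 reads against 113 and 117. HOXB9 shares no exonic base with another of the listed HOX genes in that annotation, unlike HOXB6. Overlap of HOXB9 with HOX genes outside the list was not examined, so reads from the opposite strand are not excluded. Both HOXB9 values in treated cells at 7 h were also above the 4 values at 1 h.

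**Figure D2:**
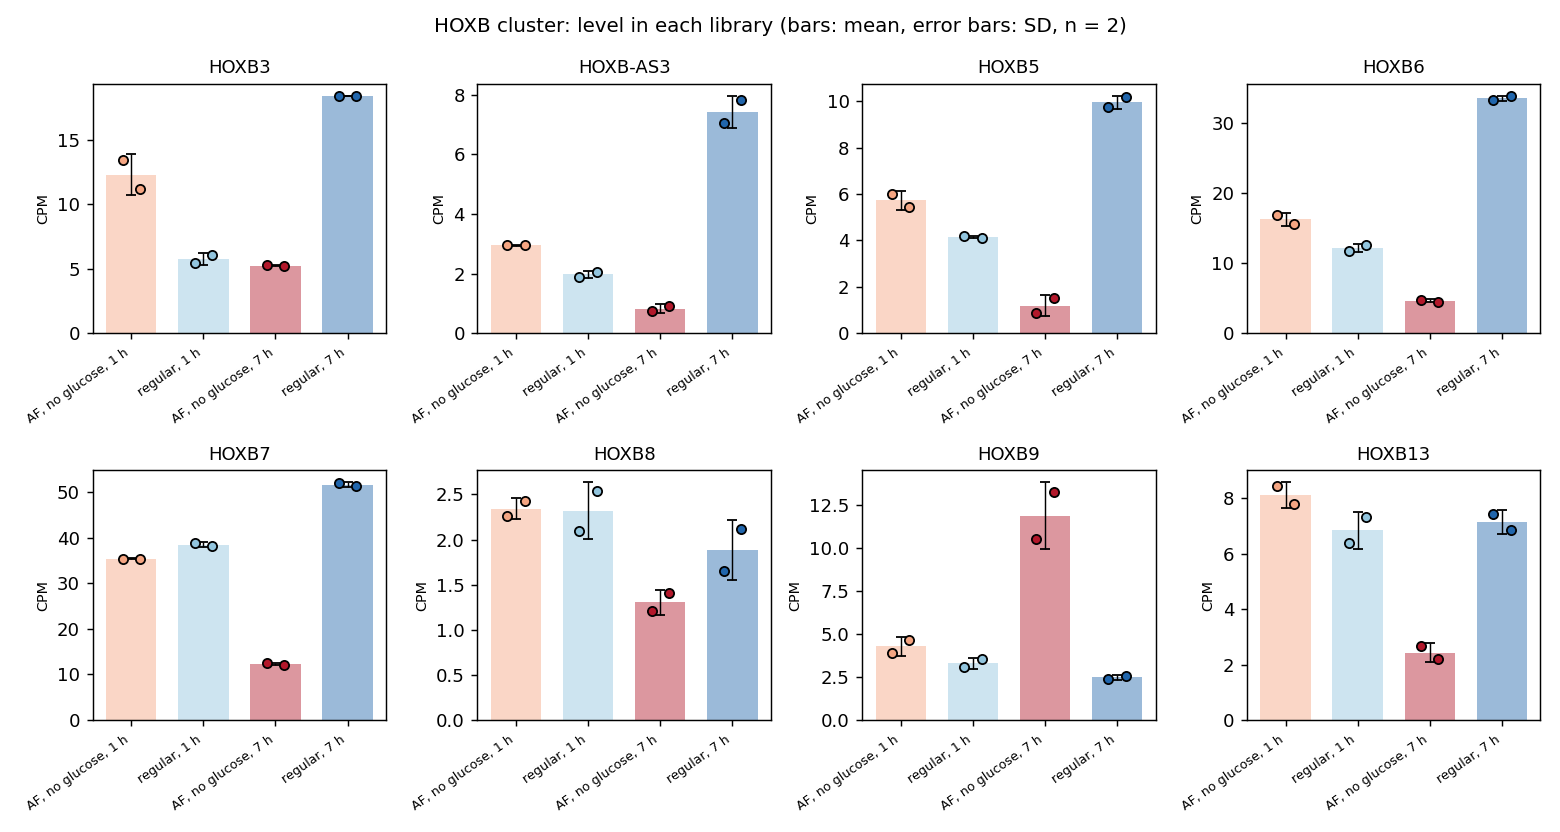
Level in CPM (y axis, from 0) of each of the 8 HOXB genes in the 4 groups (x axis), with a point per library, the mean as a bar and the SD as an error bar. HOXB3, HOXB-AS3, HOXB5 and HOXB6 are highest in regular culture at 7 h, whereas HOXB9 is highest in treated cells at 7 h, at 10.5 and 13.2 CPM.

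In the HOXA cluster 5 of 8 genes fell at 7 h, 1 rose and 2 did not pass, against 41.1% and 40.5% of all tested genes. HOXA10, a gene of the uterus and of blood progenitors, had 2.797 and 2.55 CPM in treated cells and 11.8 and 13.2 CPM in regular culture (log2 fold change -2.20 with SE 0.11, limma adjusted p = 3.44e-13). HOXA3, which shapes the thymus and parathyroid, had 2.37 and 2.36 CPM in treated cells and 5.89 and 7.02 CPM in regular culture (log2 fold change -1.42 with SE 0.14, limma adjusted p = 1.01e-08). Neither gene's groups overlapped. HOXA6, whose promoter window is shown above, had 0.043 and 0.383 CPM in treated cells and 1.42 and 1.54 CPM in regular culture, which are 1 and 12 reads in treated cells and 68 and 70 in regular culture (log2 fold change -2.91 with SE 0.46, limma adjusted p = 9.03e-06). The size of this fall depended on a library, with -1.82 without treated library A and -4.01 without treated library B, and on the prior (-1.52 with 0.5 CPM). HOXA2, a gene of the hindbrain and the second pharyngeal arch, had 0.473 and 0.638 CPM in treated cells and 1.31 and 1.103 CPM in regular culture (log2 fold change -1.06 with SE 0.29, limma adjusted p = 0.00216). These are 11 and 20 reads in treated cells and 63 and 50 in regular culture. HOXA2 reached 1 CPM in 3 libraries, all of regular culture, so it passed the filter only through the cells where it was higher.

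HOTAIRM1, a non-coding RNA known from myeloid cells, was the HOXA gene that rose. It had 8.35 and 8.33 CPM in treated cells and 4.97 and 4.88 CPM in regular culture at 7 h (log2 fold change 0.75 with SE 0.10, limma adjusted p = 1.39e-06). Both treated libraries lay above both regular ones. HOXA5, active in lung development, had 3.36 and 3.51 CPM in treated cells and 3.42 and 3.66 CPM in regular culture (-0.04, limma adjusted p = 0.807), and HOXA7 had 0.516 and 0.383 CPM in treated cells and 0.751 and 0.706 CPM in regular culture (-0.65, limma adjusted p = 0.0873). The HOXA5 groups overlapped, while the treated HOXA7 values, 12 reads in each library, lay below the regular ones without passing the test.

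**Figure D3:**
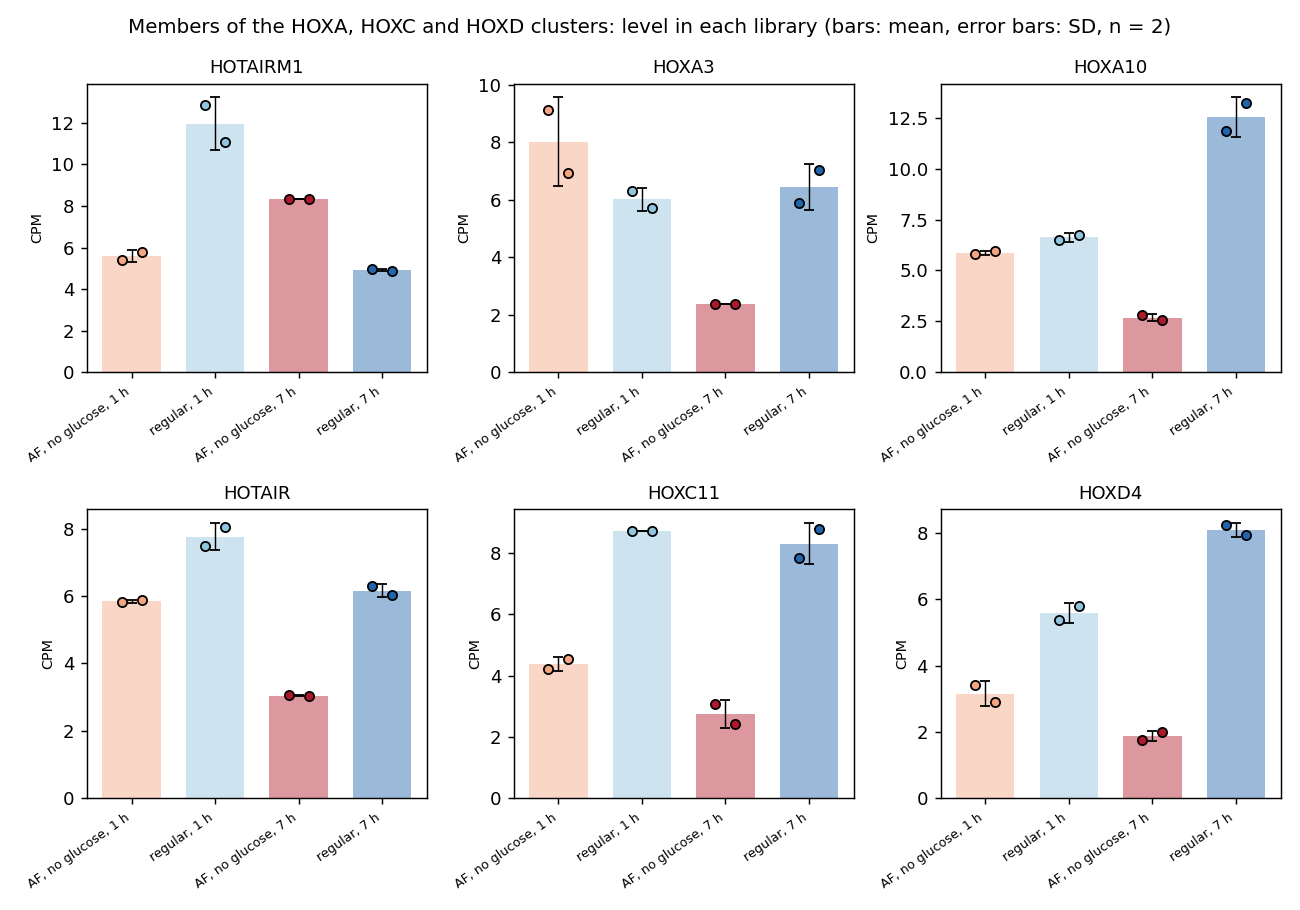
Level in CPM (y axis, from 0) of 6 genes of the HOXA, HOXC and HOXD clusters in the 4 groups (x axis), with a point per library, the mean as a bar and the SD as an error bar. HOTAIRM1 is highest in regular culture at 1 h, whereas HOXA10 and HOXD4 are highest in regular culture at 7 h and lowest in treated cells at 7 h.

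In the HOXC cluster 10 of 12 genes fell at 7 h and none rose, against 41.1% and 40.5% of all tested genes. HOXC8 and HOXC9 help set the identity of motor neurons of the brachial and thoracic spinal cord. HOXC8 had 2.24 and 1.66 CPM in treated cells and 8.75 and 9.13 CPM in regular culture (log2 fold change -2.18 with SE 0.14, limma adjusted p = 1.74e-11). HOXC9 had 4.82 and 4.18 CPM in treated cells and 10.5 and 10.6 CPM in regular culture (log2 fold change -1.22 with SE 0.10, limma adjusted p = 9.85e-10). Both fell, without overlap of the groups. HOXC10, a gene of lumbar motor neurons, kept the highest HOX level in treated cells, with 24.4 and 25.5 CPM in treated cells and 39.7 and 41.95 CPM in regular culture (log2 fold change -0.71 with SE 0.05, limma adjusted p = 4.05e-10). HOXC11 had 3.06 and 2.42 CPM in treated cells and 7.83 and 8.78 CPM in regular culture (log2 fold change -1.59 with SE 0.13, limma adjusted p = 5.1e-10). HOXC13, an activator of hair keratin genes, had 7.96 and 8.14 CPM in treated cells and 18.9 and 17.1 CPM in regular culture (log2 fold change -1.16 with SE 0.08, limma adjusted p = 6.02e-11). In each of these genes both treated libraries were below both regular ones.

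HOXC4, HOXC5 and HOXC6 overlap by annotation, with 305 exonic bases of HOXC5 found also in HOXC4 and in HOXC6, and 484 shared by HOXC4 and HOXC6, so their reads may be split between them. HOXC6 had 7.53 and 5.71 CPM in treated cells and 17.6 and 18.4 CPM in regular culture (log2 fold change -1.45 with SE 0.10, limma adjusted p = 6.55e-11). HOXC4 had 4.95 and 5.46 CPM in treated cells and 13.6 and 14.01 CPM in regular culture (log2 fold change -1.40 with SE 0.09, limma adjusted p = 2.56e-11). HOXC5, with 1.98 and 2.14 CPM in treated cells and 2.96 and 3.07 CPM in regular culture, fell least (log2 fold change -0.54 with SE 0.19, limma adjusted p = 0.0128) and lost its call without treated library A (-0.49) or regular library B (-0.52). All 3 genes had both treated libraries below both regular ones.

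Of the non-coding genes of HOXC, HOTAIR, an RNA known to bind Polycomb complexes, had 3.06 and 3.03 CPM in treated cells and 6.304 and 6.02 CPM in regular culture (log2 fold change -1.01 with SE 0.11, limma adjusted p = 7.45e-08). HOXC13-AS, which shares 172 exonic bases with HOXC13 on the other strand, had 2.15 and 2.23 CPM in treated cells and 4.45 and 3.88 CPM in regular culture (log2 fold change -0.91 with SE 0.15, limma adjusted p = 1.59e-05). Both fell. HOXC-AS1 had 0.9897 and 0.862 CPM in treated cells and 0.689 and 0.905 CPM in regular culture (0.21, limma adjusted p = 0.447), and HOXC-AS3 ranged from 0.753 to 1.06 CPM over all 8 libraries (-0.14 at 7 h, limma adjusted p = 0.633). Neither of these 2 low genes passed the test.

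In the HOXD cluster 6 of 8 genes fell at 7 h and none rose, against the same 41.1% and 40.5%. HOXD4, a gene of the hindbrain and neck, had 1.76 and 1.98 CPM in treated cells and 8.24 and 7.94 CPM in regular culture (log2 fold change -2.08 with SE 0.14, limma adjusted p = 2.37e-11), the largest fall of this cluster. HOXD11, a gene of the forearm, had 1.03 and 0.862 CPM in treated cells and 2.53 and 3.04 CPM in regular culture (log2 fold change -1.50 with SE 0.19, limma adjusted p = 5.85e-07), and HOXD10, of the lumbar spinal cord, had 1.29 and 1.5 CPM in treated cells and 3.17 and 3.27 CPM in regular culture (log2 fold change -1.18 with SE 0.16, limma adjusted p = 1.47e-06). These 2 neighbours share 452 exonic bases on the same strand. HOXD9 had 2.71 and 2.78 CPM in treated cells and 6.596 and 6.46 CPM in regular culture (log2 fold change -1.24 with SE 0.12, limma adjusted p = 1.34e-08).

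Smaller changes were seen in the other HOXD genes. HOXD8 had 10.03 and 8.55 CPM in treated cells and 14.8 and 14.98 CPM in regular culture (log2 fold change -0.68 with SE 0.08, limma adjusted p = 3.7e-07). HOXD13, the gene of the digits, had 3.44 and 3.45 CPM in treated cells and 5.07 and 5.08 CPM in regular culture (log2 fold change -0.55 with SE 0.13, limma adjusted p = 0.000757). Both fell less than 2-fold. HOXD3 had 1.81 and 1.92 CPM in treated cells and 1.73 and 1.74 CPM in regular culture (0.10, limma adjusted p = 0.695), and HOXD-AS2 had 2.797 and 2.04 CPM in treated cells and 2.21 and 2.34 CPM in regular culture (0.07, limma adjusted p = 0.734). These 2 genes share 379 exonic bases on opposite strands and neither passed the test. HAGLR, a HOXD antisense gene known also as HOXD-AS1, is outside the naming rule and was picked after its values were seen. It had 27.7 ± 0.113 CPM in treated cells and 19.1 ± 0.903 CPM in regular culture at 7 h (SD, n = 2 each; log2 fold change 0.53), given without a test.

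**Figure D4:**
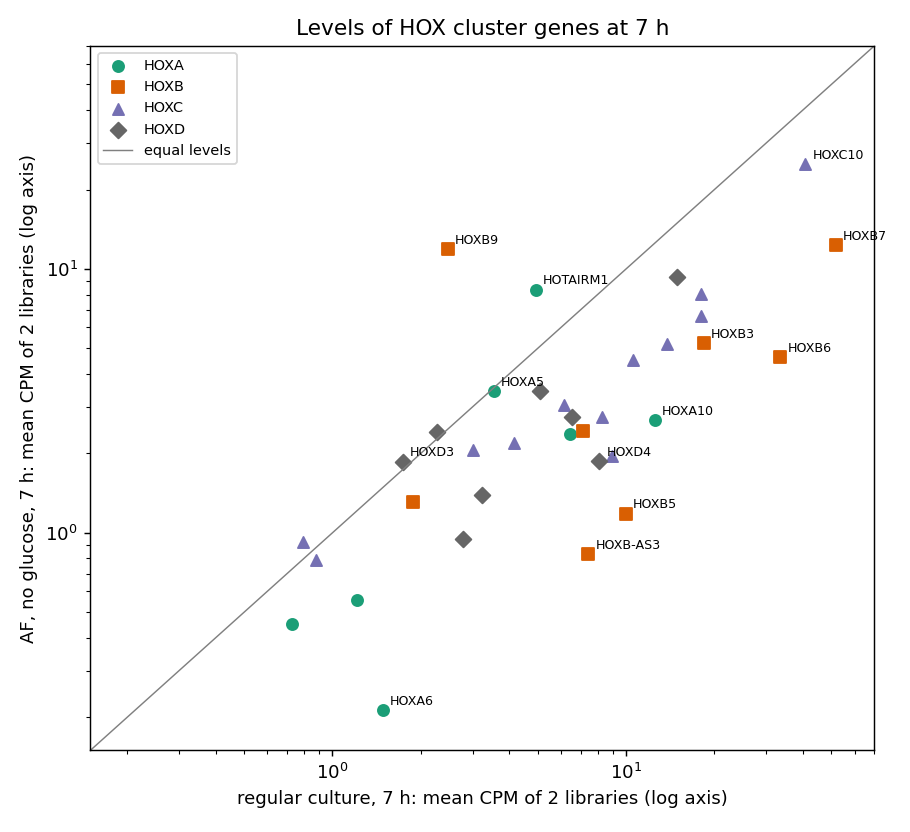
Mean level at 7 h of the HOX genes reported by name and of HOXC-AS3, in treated cells (y axis, CPM, log scale) against regular culture (x axis, CPM, log scale), with a symbol for each cluster and a line for equal levels. Points below the line are lower in treated cells, and HOXB9 and HOTAIRM1 stand farthest above it.

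The genes were also set side by side by paralog group, that is by the number shared between clusters. Groups 3, 5, 7 and 9 each held a member that was higher or did not pass the test. In group 9 the log2 fold change at 7 h was 2.23 for HOXB9, -1.22 for HOXC9 and -1.24 for HOXD9. In group 5 it was -0.04 for HOXA5, -3.07 for HOXB5 and -0.54 for HOXC5, and in group 3 it was -1.42 for HOXA3, -1.80 for HOXB3 and 0.10 for HOXD3. In group 7 it was -0.65 for HOXA7 and -2.07 for HOXB7. Groups 4, 6, 8, 10, 11 and 13 had falls in every listed member, but their sizes also differed. Falls in group 6 ran from -2.91 (HOXA6) to -1.45 (HOXC6) and in group 13 from -1.54 (HOXB13) to -0.55 (HOXD13). Those in group 8 ran from -2.18 (HOXC8) to -0.51 (HOXB8) and in group 10 from -2.20 (HOXA10) to -0.71 (HOXC10). Protein-coding and non-coding genes had medians of -1.24 over 29 and -0.14 over 7 genes.

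Per kilobase of exon, HOXB7 led the family in regular culture at 7 h, at 33.8 CPM per kb, followed by HOXC10 at 17.5 and HOXB6 at 12.9. In treated cells at 7 h the order of the per-kilobase levels was HOXC10 at 10.7, HOXB7 at 8.05, HOTAIRM1 at 5.57 and HOXB9 at 4.6 CPM per kb. In regular culture at 7 h HOXB9 stood at 0.957 CPM per kb and its neighbour HOXB8 at 0.918 CPM per kb. These lengths are merged GENCODE exons and may not be the ones that were counted.

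At 1 h HOX genes moved in both directions. Apart from HOXB9 and HOXB-AS3, 4 of 34 genes rose and 7 fell, against 17.7% and 20.7% of all tested genes (38.4% either way). The median log2 fold change over the 36 genes was -0.05, against 0.01 over all tested genes. Quantile normalization gave 2 higher and 8 lower of the 34 genes, beside 3087 and 2250 of all tested genes. Total-count scaling gave 8 and 7, beside 3937 and 1823 of all tested genes. Summed levels were 261 and 251 CPM in treated cells and 259 and 263 CPM in regular culture.

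In the HOXB cluster, HOXB9 and HOXB-AS3 apart, 2 of 6 genes rose at 1 h and 0 fell, against 17.7% and 20.7% of all tested genes. HOXB3 had 13.4 and 11.2 CPM in treated cells and 5.41 and 6.08 CPM in regular culture at 1 h (log2 fold change 1.09 with SE 0.10, limma adjusted p = 3.37e-08). HOXB6 had 16.9 and 15.6 CPM in treated cells and 11.8 and 12.6 CPM in regular culture (log2 fold change 0.41 with SE 0.08, limma adjusted p = 0.000274). Both rose at 1 h and fell at 7 h. HOXB-AS3 had 2.94 and 2.94 CPM in treated cells and 1.88 and 2.06 CPM in regular culture (log2 fold change 0.57 with SE 0.17), and HOXB9 had 3.88 and 4.66 CPM in treated cells and 3.07 and 3.52 CPM in regular culture (log2 fold change 0.37 with SE 0.14). HOXB5, at 6.003 and 5.45 CPM in treated cells and 4.19 and 4.11 CPM in regular culture, missed the threshold (0.46, limma adjusted p = 0.051), but passed under total-count scaling (0.52), a prior of 0.5 CPM (0.42), limma-voom (0.47) and without either treated 7 h library (0.46). Both treated libraries lay above both regular ones in these 5 genes, while HOXB7 (35.3 and 35.5 CPM in treated cells and 38.9 and 38.1 CPM in regular culture), HOXB8 (2.26 and 2.42 CPM in treated cells and 2.097 and 2.54 CPM in regular culture) and HOXB13 (8.45 and 7.79 CPM in treated cells and 6.38 and 7.32 CPM in regular culture) did not pass. The treated HOXB13 values also lay above the regular ones, and those of HOXB7 lay below them.

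In HOXA, HOTAIRM1 fell at 1 h, with 5.39 and 5.802 CPM in treated cells and 12.9 and 11.1 CPM in regular culture (log2 fold change -1.09 with SE 0.10, limma adjusted p = 5.27e-08). It was thus lower at 1 h and higher at 7 h. HOXA3 had 9.11 and 6.92 CPM in treated cells and 6.29 and 5.73 CPM in regular culture (log2 fold change 0.40 with SE 0.14, limma adjusted p = 0.0261), and HOXA5 had 3.42 and 3.405 CPM in treated cells and 3.01 and 2.12 CPM in regular culture (log2 fold change 0.43 with SE 0.16, limma adjusted p = 0.0456). These 2 rises were small. HOXA10 had 5.798 and 5.94 CPM in treated cells and 6.47 and 6.77 CPM in regular culture, HOXA2 had 0.913 and 0.844 CPM in treated cells and 1.03 and 0.774 CPM in regular culture, HOXA6 had 1.03 and 0.981 CPM in treated cells and 1.22 and 1.305 CPM in regular culture and HOXA7 had 1.19 and 1.14 CPM in treated cells and 0.547 and 1.24 CPM in regular culture, with no call in any of them.

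In HOXC and HOXD the called genes were lower. HOXC11 had 4.22 and 4.55 CPM in treated cells and 8.72 and 8.74 CPM in regular culture at 1 h (log2 fold change -0.99 with SE 0.13, limma adjusted p = 3.1e-06). HOXD4 had 3.42 and 2.89 CPM in treated cells and 5.38 and 5.79 CPM in regular culture (log2 fold change -0.82 with SE 0.14, limma adjusted p = 7.31e-05). Both were lower at 7 h as well. HOTAIR, the neighbour of HOXC11, had 5.82 and 5.88 CPM in treated cells and 7.48 and 8.05 CPM in regular culture (log2 fold change -0.40 with SE 0.11, limma adjusted p = 0.00694). HOXC8 had 4.54 and 4.22 CPM in treated cells and 5.65 and 6.08 CPM in regular culture (log2 fold change -0.42 with SE 0.14, limma adjusted p = 0.0228) and HOXC13 had 12.1 and 11.7 CPM in treated cells and 14.2 and 15.3 CPM in regular culture (log2 fold change -0.31 with SE 0.08, limma adjusted p = 0.00404). In all of these the treated libraries lay below the regular ones.

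The other genes of these clusters did not pass at 1 h. HOXC4 had 12.6 and 11.03 CPM in treated cells and 11.3 and 11.6 CPM in regular culture, and HOXC5 had 3.31 and 2.15 CPM in treated cells and 3.62 and 3.01 CPM in regular culture. HOXC6 had 14.7 and 14.2 CPM in treated cells and 12.3 and 12.2 CPM in regular culture, and HOXC9 had 7.099 and 7.41 CPM in treated cells and 8.66 and 8.34 CPM in regular culture. HOXC10 had 39.03 and 39.5 CPM in treated cells and 35.6 and 38.99 CPM in regular culture. None of these 5 differed by more than 0.30 on the log2 scale. HOXC13-AS had 3.17 and 3.02 CPM in treated cells and 3.07 and 3.52 CPM in regular culture, and HOXC-AS1 had 1.19 and 1.06 CPM in treated cells and 1.34 and 1.26 CPM in regular culture. In HOXD, HOXD3 had 1.53 and 1.09 CPM in treated cells and 1.46 and 1.17 CPM in regular culture and HOXD8 had 12.3 and 12.9 CPM in treated cells and 13.3 and 13.3 CPM in regular culture. HOXD9 had 4.66 and 4.33 CPM in treated cells and 4.95 and 4.799 CPM in regular culture and HOXD10 had 3.38 and 3.21 CPM in treated cells and 2.83 and 2.74 CPM in regular culture. Fold changes of these 4 HOXD genes lay between -0.12 and 0.24. HOXD11 had 3.31 and 2.56 CPM in treated cells and 2.49 and 2.72 CPM in regular culture, HOXD13 had 3.93 and 4.22 CPM in treated cells and 3.77 and 3.27 CPM in regular culture and HOXD-AS2 had 2.51 and 1.96 CPM in treated cells and 2.67 and 2.68 CPM in regular culture.

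Of the 11 calls at 1 h, 6 remained with each library left out in turn, among them those of HOXB3, HOXB6, HOTAIRM1, HOXC11 and HOXD4. The other 5 were lost without at least 1 library. HOXC8 lost its call without any 1 of the 1 h libraries (-0.47 to -0.36). HOXA3 lost it without treated library A (0.20) or regular library B (0.33), and HOXC13 (-0.26) and HOTAIR (-0.35) without regular library B. HOXA5 lost it without either treated 1 h library (0.42 and 0.43), regular 1 h library B (0.18) or either regular 7 h library (0.43). Quantile normalization also removed the calls of HOXA3 (0.34) and HOXA5 (0.37). Besides HOXB5, calls at 1 h were gained under at least 1 alternative by HOXB7, HOXB13, HOXC5, HOXC6, HOXC9, HOXC10 and HOXA7.

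In regular culture the family was higher at 7 h than at 1 h. Apart from HOXB9 and HOXB-AS3, 15 of 34 genes rose and 3 fell, against 30.7% and 30.8% of all tested genes (61.5% either way), with a median of 0.24 against 0.00. Under quantile normalization the split was 18 and 1, beside 4647 and 3440 of all tested genes. Rises in HOXB were 1.67 for HOXB3, 1.46 for HOXB6 and 1.25 for HOXB5 (for HOXB3, limma adjusted p = 2.74e-11). HOXB3, for example, averaged 18.4 ± 0.0212 CPM at 7 h and 5.75 ± 0.475 CPM at 1 h in regular culture (SD, n = 2 each). HOTAIRM1 went the other way (-1.27, limma adjusted p = 2.79e-09), with 4.92 ± 0.0647 CPM at 7 h and 11.97 ± 1.26 CPM at 1 h. HOXB-AS3 changed by 1.89 and HOXB9 by -0.41. Of the 18 calls, 7 were lost without at least 1 library, those of HOTAIR, HOXA5, HOXC-AS1, HOXC4, HOXC9, HOXC10 and HOXC13, for which values without a library lay between -0.72 (HOXC-AS1) and 0.43 (HOXA5). HOXC-AS1 (-0.68) reached 1 CPM in 4 libraries, all at 1 h, so it passed the filter only through the time where it was higher.

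In treated cells the family was lower at 7 h than at 1 h. Apart from HOXB9 and HOXB-AS3, 24 of 34 genes fell and 2 rose, against 40.7% and 36.9% of all tested genes (77.6% either way), with a median of -0.72 against -0.03. HOXB5 changed by -2.28, HOXB6 by -1.79 and HOXA3 by -1.73, while HOXB9 changed by 1.46 and HOTAIRM1 by 0.57. HOXA6 changed by -2.37, but by -1.28 without treated 7 h library A, -3.47 without B and -1.12 with a prior of 0.5 CPM. The falls include HOXA7 (-1.29), which reached 1 CPM only at 1 h and so passed the filter only where it was higher. The other rise, HOXD3 (0.51, limma adjusted p = 0.043), was lost without any 1 of treated 1 h library B (0.27), treated 7 h library A (0.55) or B (0.47), or either regular 7 h library (0.51), and under total-count scaling (0.15). HOTAIRM1 also lost its call under that scaling (0.20). Both time courses can be read for HOXB6, which averaged 4.64 ± 0.196 CPM in treated cells at 7 h and 16.2 ± 0.946 CPM at 1 h, and 33.5 ± 0.3604 CPM in regular culture at 7 h and 12.2 ± 0.544 CPM at 1 h (SD, n = 2 each). These comparisons share libraries with those of treatment, and their values are given side by side only.

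The difference between the treatment effects at 7 h and 1 h was tested in the same fit. Apart from HOXB9 and HOXB-AS3 it was negative in 25 of 34 genes and positive in 1, against 37% and 36.7% of all tested genes (73.7% either way), with a median of -1.02. It was -3.53 for HOXB5 (limma adjusted p = 2.02e-10) and 1.84 for HOTAIRM1 (limma adjusted p = 8.43e-10). HOXB-AS3 stood at -3.66 and HOXB9 at 1.87. HOXA2 lost the call without treated 1 h library A (-0.98), regular 1 h library B (-0.84), treated 7 h library A (-0.84) or regular 7 h library A (-0.91). HOXA7 lost it without any 1 of 6 libraries, all but regular 1 h library B and treated 7 h library A, at -1.16 to -0.57. HOXA7 reached 1 CPM in 3 libraries, all at 1 h, so it passed the filter only through the time where it was higher. Quantile normalization removed both calls (-0.94 for HOXA2 and -1.13 for HOXA7), and a prior of 0.5 CPM removed that of HOXA7 (-0.68). The HOXA6 difference of -2.60 was -1.50 without treated 7 h library A and -3.70 without treated 7 h library B.

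Genes that work with HOX proteins, act on the clusters or lie beside them were taken as 4 lists. Counts under them are read against the shares of all tested genes given above. Their counts under quantile normalization and total-count scaling are read against the counts of all tested genes given above for that setting. PBX, MEIS and PKNOX proteins bind DNA together with HOX proteins. Of 7 listed genes, 1 rose and 3 fell at 7 h (median -0.03), with 1 and 5 under total-count scaling (median -0.34). MEIS1 had 8.67 CPM in treated cells and 31.7 CPM in regular culture on average (log2 fold change -1.87, limma adjusted p = 8.76e-16), MEIS2 changed by -0.99 and PKNOX1 by 0.51. PBX3 changed by -0.17, a call lost under quantile normalization (-0.10) and without regular 7 h library A (-0.15). At 1 h, 3 rose and none fell, with MEIS1 at 0.54 and PBX4 at 0.74, whose call was lost without treated 1 h library A (0.54) or regular 1 h library A (0.53). MEIS1 was therefore higher at 1 h and lower at 7 h, as HOXB3, HOXB6 and HOXA3 were. This order is not particular to them, since EZH1 (0.46 and -0.68) and MLLT10 (0.65 and -0.74) of the lists below also had it.

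Of 30 Polycomb genes, whose proteins keep HOX clusters silent, 13 rose and 15 fell at 7 h (median -0.22), with 8 and 17 under total-count scaling. The chromodomain gene CBX2 changed by -1.92, CBX7 by -1.32 and CBX6 by -1.15. RYBP changed by 1.52. PCGF2 averaged 4.39 ± 1.52 CPM in treated cells and 0.193 ± 0.0228 CPM in regular culture at 7 h (log2 fold change 4.14). At 1 h, 4 Polycomb genes rose and 10 fell, 4 and 5 under quantile normalization and 8 and 4 under total-count scaling. EZH1 changed by 0.46, CBX8 by -0.92 and PCGF2 by 4.46. PCGF2 averaged 6.76 ± 3.30 CPM in treated cells and 0.239 ± 0.0372 CPM in regular culture at 1 h (SD, n = 2 each). Its means in regular culture lay below 1 CPM at both times, so it passed the filter only through treated cells.

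The next list held Trithorax, MLL-complex and H3K27 demethylase genes, which act on the active side. It also held DOT1L, MLLT1, MLLT3, MLLT10, AFF1 and AFF4, which belong to none of these classes. Of its 22 genes, 6 rose and 11 fell at 7 h (median -0.17), with 5 and 16 under total-count scaling. MEN1 changed by -1.43, SETD1A by -1.40 and KMT2B by -1.28, while the demethylase genes KDM6B and KDM6A changed by 1.87 and 1.57 and AFF1 by 1.18. At 1 h, 6 rose and 8 fell, 8 and 3 under quantile normalization and 8 and 4 under total-count scaling, with KDM6B at -2.50, DOT1L at -0.46 and MLLT10 at 0.65. KDM6B averaged 56.7 CPM in treated cells and 322 CPM in regular culture at 1 h, and 69.6 CPM in treated cells and 19.02 CPM in regular culture at 7 h. This is a change over time of 0.29 in treated cells and -4.08 in regular culture on the log2 scale. Under total-count scaling the change in treated cells was -0.08 and did not pass the test.

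Genes that flank the clusters moved both ways. Of 15 listed, 7 rose and 8 fell at 7 h, 3 of the falls being at least 2-fold (median -0.36), and under total-count scaling 1 rose and 9 fell. CBX5, beside HOXC, had 157 CPM in treated cells and 476 CPM in regular culture on average (log2 fold change -1.60), SMUG1, also beside HOXC, changed by -1.04 and SNX11, beside HOXB, by -1.0. CALCOCO2, beside HOXB, changed by 0.93, MTX2, beside HOXD, by 0.41 and SKAP2, beside HOXA, by 0.39, and the last 2 lost their calls under total-count scaling (0.10 and 0.07). At 1 h, 1 rose and 3 fell, 3 and 1 under quantile normalization and 5 and 1 under total-count scaling, with COPZ1 at 0.16, UBE2Z at -0.23 and ATP5MC1 at -0.12. The COPZ1 call was lost without treated 1 h library B (0.10), and that of ATP5MC1 without any 1 of treated 1 h library A (-0.08), either regular 1 h library (-0.15 and -0.09) or either regular 7 h library (-0.12), under quantile normalization (-0.07) and under total-count scaling (-0.05).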

How the data were processed

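RNA-seq of 4 groups with 2 libraries each was analysed, all from 1 cell line. Libraries were made with the SMART-Seq mRNA HT and Nextera XT kits, per the labels' protocols. The submitters' processing notes name HISAT2, edgeR and GRCh38; for versions and for the counting tool, the entry is "not given in the sources used here". Deposited was a table of log2 CPM for 13036 genes, made by the authors; from the values, the prior was 0.0522 CPM, which equals 2 reads in a library of mean size. All values (100%) gave whole reads within 0.1 read. Column names give the group but not which library of it, so A and B are names only. Of the genes, 64 have no symbol.

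The linear model of limma 3.58.1 (R 4.3.3) was used on these log2 values, with a mean for each group and a trended variance, after a filter of 1 CPM in 2 libraries. Contrasts were treated against regular culture at 1 h and 7 h, their difference, and 7 h against 1 h in each culture, with Benjamini-Hochberg adjustment over 13028 genes. The fit was run on simulated data in which few genes changed, only in treated cells at 7 h, with a spread set in advance. In the deposited data 81.6% of genes passed at 7 h, so the simulation checks the code and not these calls. Alternatives were quantile normalization, total-count scaling (to the sum over the listed genes), no filter, a prior of 0.5 CPM, each library left out and, added after seeing the data, limma-voom on the recovered reads. The HOX genes and the other lists were chosen with earlier results of these data known. Values are named for every HOX gene that averaged 1 CPM in some group, and in the other lists for up to 3 rising and 3 falling genes at 7 h and 2 of each at 1 h. A gene of the HOX set, kept in its counts, sums and medians, and a gene of another list are not reported here by name. Gene exons are from GENCODE v29.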

Additional observations from a re-analysis of the deposited data

Results flagged for a closer look

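The treatment effect differed between the times in 26 of 34 HOX genes, HOXB9 and HOXB-AS3 apart, against 73.7% of all tested genes. The test was limma's, of the effect at 7 h minus the effect at 1 h (adjusted p under 0.05). The count is near that share and does not set the family apart. In the HOXA cluster the difference on the log2 scale was -2.60 for HOXA6, -2.03 for HOXA10, -1.82 for HOXA3, -1.12 for HOXA7, -1.04 for HOXA2 and 1.84 for HOTAIRM1. The HOXA7 and HOXA2 calls were lost without at least 1 library and under quantile normalization. Each of these 2 genes reached 1 CPM in 3 libraries, HOXA7 only at 1 h and HOXA2 only in regular culture. Both thus passed the filter only through cells where they were higher. In the HOXB cluster the difference on the log2 scale was -3.53 for HOXB5, -3.25 for HOXB6, -2.89 for HOXB3, -1.94 for HOXB7 and -1.78 for HOXB13. In the HOXC cluster the difference on the log2 scale was -1.77 for HOXC8, -1.68 for HOXC6, -1.44 for HOXC4, -1.0 for HOXC9, -0.84 for HOXC13, -0.82 for HOXC13-AS, -0.78 for HOXC10, -0.60 for HOTAIR and -0.60 for HOXC11. In the HOXD cluster the difference on the log2 scale was -1.66 for HOXD11, -1.42 for HOXD10, -1.27 for HOXD4, -1.12 for HOXD9, -0.76 for HOXD13 and -0.60 for HOXD8. The difference was positive for HOTAIRM1 and negative for the other 25 genes, against 36.7% and 37% of all tested genes. The 2 effects of a gene come from separate libraries, each with n = 2 a group.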

How the results depend on the processing

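The counts of HOX genes past the threshold, here over all 36 with HOXB9 and HOXB-AS3 counted, stayed within 1.5 times the main count in each of the 5 contrasts under quantile normalization, total-count scaling, no filter, a prior of 0.5 CPM and limma-voom on recovered reads, and no called HOX gene changed direction. With a library left out, the median log2 fold change of the 34 genes lay between -0.14 and -0.04 at 1 h (main -0.08). At 7 h it lay between -1.21 and -1.11 (main -1.17). The lone library left in a group is then assumed to vary like the other groups. Total-count scaling moved the median of all genes at 7 h to -0.322, against -0.00696 in the main fit. The HOXB-AS3 difference was -3.06 with a prior of 0.5 CPM. No paired analysis was possible because the columns carry no replicate numbers. The planned edgeR and DESeq2 alternatives were not run, and limma-voom on the recovered reads stands in their place. Depth limits the genes with few reads, such as HOXA6, with 1 and 12 reads in treated cells at 7 h.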
